A study of Mus musculus with 2 samples.

Results

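The cells described here are adrenal cortical cells of the male mouse with an intermediate level of Cyp11b1, the gene of the enzyme that makes corticosterone in its last step. They were selected on measured transcript levels, given as CPM (UMIs, unique molecular identifiers, per 1000000 UMIs of the cell). A member had at least 200 and under 500 CPM of Cyp11b1, under 100 CPM of the aldosterone synthase gene Cyp11b2, at least 2000 CPM of the nuclear RNA Malat1, under 600 CPM of Nr4a1 and Nr4a2 together, and under 500 CPM of Aldh1a1. Of 6904 kept cells, 338 met these limits, 258 of 4892 in library 1 and 80 of 2012 in library 2. Cyp11b1 lies at chr15:74834125-74841643 on the minus strand of mm10, beside its close paralog Cyp11b2 at chr15:74851010-74856318, and counts may mix reads of the pair.

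The study sorted cells of dissociated adrenals from 15-week-old male mice of genotype WT, SF1-Cre ; Rosa mTmG and profiled them with a droplet kit, version 3.1. The SF1 promoter drives Cre in adrenal cortex and other steroidogenic tissue, and Rosa mTmG turns from tdTomato to GFP where Cre has acted. Every cell compared came from such mice, and no mice without Cre were compared. The 26 adrenals went into 2 libraries of 1 group, and the sort took Ruby-positive, DAPI-negative cells, with no GFP gate named. The labels do not say which animals went to which library. The p-values therefore measure how far differences between groups of cells vary between these 2 libraries, a spread that may be technical.

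In the adrenal cortex of the adult mouse, the outer zona glomerulosa (zG) makes aldosterone and the zona fasciculata (zF) below it makes corticosterone, and cells of the outer zone are known to give rise to cells of the inner one. WNT signalling, with the ligand Wnt4, is strongest in the outer cortex, while ACTH, acting through its receptor and cAMP, drives the zF programme. Abca1 is a cholesterol efflux pump whose gene is a target of the oxysterol receptors LXR.

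The depth was 92905273 UMIs over 5040 barcodes in library 1 and 28023733 UMIs over 2288 barcodes in library 2. A barcode was kept with 1000 UMIs and 500 genes or more and a mitochondrial share no higher than 30%. The libraries shared 4 barcodes, none of them a member's. Beside the members stood 2819 cells below the range (low Cyp11b1), 933 above it (high Cyp11b1) and 95 Cyp11b2-high cells, with at least 500 CPM of Cyp11b2 and under 200 CPM of Cyp11b1. These 3 groups met the other limits of the rule and had under 500 CPM of leukocyte markers, a limit that took out 147 cells. The rule sets no such limit for members, and 4 of the 338 were over it.

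Members made up 5.27% of the kept cells of library 1, with an exact 95% interval of 4.66 to 5.94. In library 2 the share was 3.98% (3.17 to 4.92). These intervals cover counting error only, and the shares of the 2 libraries were not tested against each other. Of the 507 kept cells in the Cyp11b1 range, 93 failed the Cyp11b2 limit, 79 the Malat1 limit, 22 the Nr4a limit and 0 the Aldh1a1 limit, and a cell could fail more than 1. High Cyp11b1 cells were 11.8% of kept cells in library 1 and 17.8% in library 2, while low Cyp11b1 cells were 40.9% and 40.7%. The members were thus the smallest of these 3 stretches of the Cyp11b1 scale in both libraries.

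Median depth was similar in members and in the low and high groups. In members it was 19090 UMIs per cell in library 1 and 15350 in library 2, against 18140 and 14970 in low and 18370 and 15170 in high Cyp11b1 cells. In library 2 the shallow tail differed, with 5 of 80 members under 5000 UMIs against 84 of 818 low and 53 of 358 high cells. Each member's Cyp11b1 level nevertheless rested on few UMIs, with a median of 6 per cell in library 1 and 5 in library 2, and 23 and 15 members had 3 or fewer. Pooled over members, Cyp11b1 stood at 341.5 CPM in library 1 and 353.3 CPM in library 2, between 24.3 and 22.3 CPM in low and 1408 and 2290 CPM in high Cyp11b1 cells. These levels follow from the rule and are given as a description. No Cyp11b2 UMI was seen in 188 members of library 1 and 75 of library 2.

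To see how far counting error shapes the range, the UMIs of each cell were split at random into 2 equal draws. Of the cells that the rule chose from the first draw, 37.5% in library 1 (31.8 to 43.4, of 283 cells) and 38.5% in library 2 (27.7 to 50.2, of 78 cells) fell in the range again in the second draw. Another 34.3% and 37.2% fell under 200 CPM, and 28.3% and 24.4% reached 500 CPM or more. Cells chosen as low stayed under 200 CPM in 95.1% and 95.5% of cases, and cells chosen as high stayed at 500 CPM or more in 84.6% and 82.3%. Pooled over the chosen cells, Cyp11b1 in the second draw was 374.7 CPM in library 1 and 328.2 CPM in library 2. In the draw that chose them it was 349.7 and 316.3 CPM. The median chosen cell had 296.5 and 247.2 CPM in the second draw. A single cell's place in the intermediate group was therefore uncertain at the depth of 1 draw, which is below that of the full cell. The pooled level stayed between those of the low and high groups, which a mix of low and high cells would also give.

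**Figure D1:**
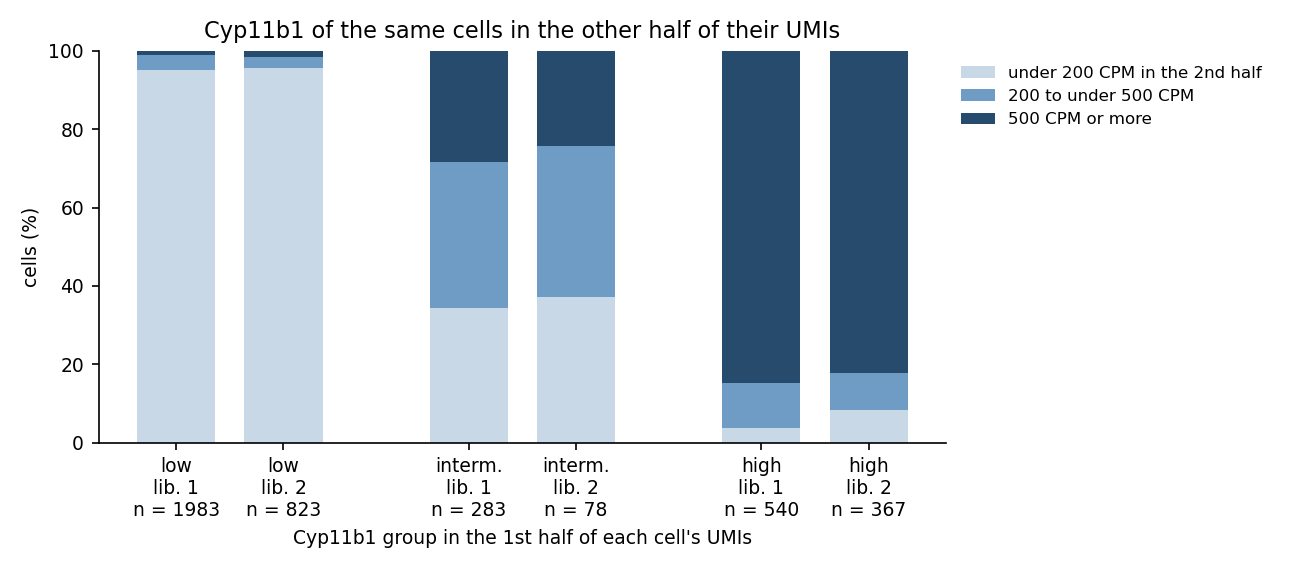
Shares of cells (y axis, percent) by their Cyp11b1 level in the second random draw of their UMIs, for cells grouped by the rule in the first draw (x axis; low, intermediate and high Cyp11b1, 2 libraries, n cells each). Of the intermediate cells, 37.5% and 38.5% fell in the range again, against at least 82.3% of low or high cells that kept their group.

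At the limits of the range the levels on either side were as follows, with no test. In library 1 the 67 cells just below it (150 to 200 CPM) had 2202 CPM of Wnt4 and 34.7 CPM of Abca1, and the 46 just inside (200 to 250 CPM) had 2053 and 23.5 CPM. At the upper limit, the 39 cells just inside (450 to 500 CPM) had 2125 CPM of Wnt4 and 53.1 CPM of Abca1, and the 38 just outside (500 to 550 CPM) had 2119 and 60.1 CPM. In library 2 the 27 and 15 cells at the lower limit had 2192 and 2107 CPM of Wnt4, and the 15 and 9 cells at the upper limit had 2167 and 2098 CPM. Abca1 in the same cells went the other way from library 1 at both limits. It stood at 54.0 and 96.2 CPM at the lower limit and 72.8 and 23.0 CPM at the upper. Over the whole Cyp11b1 scale, Wnt4 in library 1 went from 2436 CPM in the 1486 cells without Cyp11b1 to 1697 CPM in 228 cells at 1000 to 2000 CPM of Cyp11b1 and 1042 CPM in 113 cells at 2000 to 5000 CPM. In library 2 the same bins had 2192, 1609 and 1018 CPM. Within the range the 6 bins of library 1 lay between 1899 and 2236 CPM with no steady fall, so most of the drop in Wnt4 lay above the members. Abca1 had its higher bins in the upper part of the range in library 1, from 300 CPM of Cyp11b1 (49.6 to 57.3 CPM, against 23.5 and 38.6 CPM below), whereas the 6 thinly filled bins of library 2 showed no such order.

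**Figure D2:**
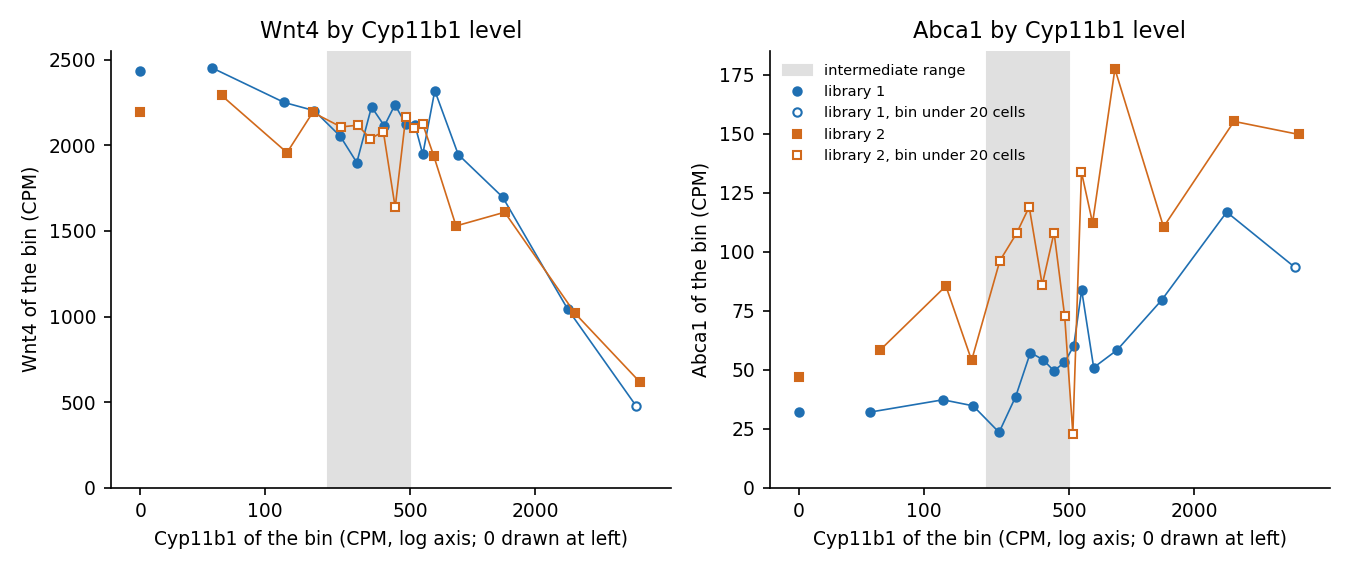
Pooled Wnt4 (left) and Abca1 (right) in CPM against the Cyp11b1 level of the cells' bin (CPM, log axis, cells without Cyp11b1 drawn at the left), for both libraries, with the intermediate range shaded and bins under 20 cells drawn open. Wnt4 lies near 2000 CPM through the shaded range in all but 1 open bin and falls to about 1000 CPM (1042 and 1018) at 2000 to 5000 CPM of Cyp11b1.

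UMIs were summed over the cells of each group in each library, and edgeR's quasi-likelihood test compared the 8 sums over 11647 genes with a term for the library. The comparisons share the members' sums and are not independent of each other. Unless another fit or setting is named, edgeR means this fit of the 8 sums. Where values of groups are said not to overlap, this describes the same sums as the test and adds no support. The share of all genes without overlap was not counted. Differences are on the log2 scale with their standard errors, and adjusted p-values are Benjamini-Hochberg over all genes tested.

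The first comparison asked how members differ from cells below the range, whose median was 0 Cyp11b1 UMIs per cell in both libraries. In edgeR, 36 genes (0.309% of those tested) were higher in the members and 18 (0.155%) were lower. A fit of these 2 groups alone called 82 and 104 genes, and DESeq2 called 11 and 4. Among the higher ones were Hhex, Abca1 and Acsbg1, and among the lower ones the zG marker Vsnl1 and the transcription cofactor Lmo2. Cyp11b1, used by the rule, is 1 of the 36. Of the 36, 13 had over 25% of the members' UMIs in 1 cell, and 10 were no longer called without the 4 members over the leukocyte limit. All 36 higher and 17 of the 18 lower genes had the same sign in each library alone. These signs come from the same sums as the calls and add no support.

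Hhex, a homeobox transcription factor gene at chr19:37434810-37440731, had 41.6 CPM in the members of each library, against 18.1 CPM in low cells of library 1 and 17.3 CPM in library 2. Both member values lay above both low values. The difference was 1.22 ± 0.15 (adjusted p = 0.000281, edgeR), and it was called under every alternative except the fit without a library term. High cells had more again, 94.98 and 137.2 CPM, and Cyp11b2-high cells had the least, 11.9 and 8.69 CPM. Against high cells the members were lower by a log2 difference of -1.37 ± 0.14 (adjusted p = 6.29e-06, edgeR).

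Acsbg1 encodes an acyl-CoA synthetase of long-chain fatty acids. Members had 21.5 CPM in library 1 and 34.1 CPM in library 2, low cells 9.94 and 15.3 CPM, and high cells 66.9 and 125.3 CPM. The 3 groups did not overlap, and the members exceeded low cells by 1.11 ± 0.16 (adjusted p = 0.00174, edgeR). DESeq2 did not call that difference (adjusted p = 0.361). They were lower than high cells by a log2 difference of -1.72 ± 0.14 (adjusted p = 4.2e-07, edgeR).

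Abca1, at chr4:53030787-53159895, is a marker named for these cells with earlier results of these data known. It had 44.8 CPM in members of library 1 and 97.3 CPM in library 2, 32.6 and 51.0 CPM in low cells and 78.8 and 138.5 CPM in high cells. Within each library the members lay between their neighbours, although the libraries differed enough that 1 low value exceeded 1 member value. The excess over low cells was 0.61 ± 0.11 (adjusted p = 0.0103, edgeR), and the difference from high cells was -0.69 ± 0.11 (adjusted p = 0.000796, edgeR). The call against low cells was lost in DESeq2 (adjusted p = 0.0576), in cells thinned to 5000 UMIs (0.608) and with only members under 350 CPM of Cyp11b1 (0.492). After that thinning, 17.1% of members in library 1 (12.6 to 22.3) and 33.3% in library 2 (22.9 to 45.2) held an Abca1 UMI, against 45.4% and 55.0% before it. In low cells the thinned shares were 13.7% and 19.9%. In leukocytes (at least 500 CPM of leukocyte markers), which may hold Abca1 RNA of their own, they were 9.09% and 10.3%.

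Of the 9 tested genes in a list of LXR targets and cholesterol efflux, Abca1 was the 1 called against low cells, with a list median of 0.04 beside 0.00 over all genes. Against high cells Abca1 and Scd2, a fatty acid desaturase gene, were lower in members. Scd2 had 266.9 and 350.8 CPM in members against 338.2 and 476.5 CPM in high cells (-0.37 ± 0.06, adjusted p = 0.00154, edgeR).

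Among the other genes higher in members than in low cells were Acan, Pdlim2, Scx and C4b. Acan, the gene of the proteoglycan aggrecan, had 41.0 and 42.4 CPM in members and 26.2 and 20.8 CPM in low cells (0.72 ± 0.11, adjusted p = 0.00417, edgeR). Pdlim2, of a PDZ and LIM domain protein, had 34.5 and 42.4 CPM against 21.8 and 16.5 CPM (0.83 ± 0.14, adjusted p = 0.00894, edgeR). Members also held more UMIs of Scx, the transcription factor scleraxis (41.6 and 56.5 against 28.7 and 24.1 CPM), and of the complement gene C4b (57.9 and 66.5 against 36.9 and 36.1 CPM). In these 4 genes, named because they were called on the same sums, no member value overlapped a low value. DESeq2 did not call Acan (adjusted p = 0.0549), Pdlim2 (0.0511) or Scx (0.107), and in thinned cells Acan (0.806), Scx (0.124) and C4b (0.132) were not called by edgeR. Itga1, a collagen-receptor integrin subunit, differed by 0.80 ± 0.16 (adjusted p = 0.0234, edgeR) and did not hold in thinned cells, where its difference was -0.03.

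Gstm1, a glutathione transferase gene, was higher by a smaller step with the same size in both libraries. It had 514.4 CPM in members of library 1 and 534.6 CPM in library 2, against 375.0 and 395.1 CPM in low cells (0.42 ± 0.06, adjusted p = 0.000651, edgeR). Of 21 antioxidant and metallothionein genes tested, 3 were higher in members than in low cells (Gstm1, Mt1 and Mt2) and 0 lower, with a median of 0.07. Mt2, of a metal-binding protein, differed by 0.76 ± 0.15 (adjusted p = 0.0234, edgeR), a call lost in DESeq2 (0.508) and without the highest doublet scores (0.219). Reads of these families may be shared among paralogs.

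Among lower genes, Vsnl1, a calcium sensor gene and zG marker at chr12:11325242-11436613, had 339.2 CPM in members of library 1 and 379.9 CPM in library 2. Low cells had 456.1 and 566.7 CPM, high cells 195.3 and 146.2 CPM and Cyp11b2-high cells 885.8 and 1078 CPM. The 4 groups did not overlap, and the members lay below low and above high cells in both libraries. The difference from low cells was -0.54 ± 0.11 (adjusted p = 0.0352, edgeR; 0.341 in DESeq2), and that from high cells was 1.05 ± 0.12 (adjusted p = 3.87e-05, edgeR). After thinning, 63.9% of members in library 1 and 62.7% in library 2 held a Vsnl1 UMI, against 75.0% and 79.4% of low cells, 38.4% and 42.3% of high cells and 4.54% and 3.45% of leukocytes. Unthinned, the member shares were 85.3% and 76.2%.

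Lmo2, of a LIM-only cofactor, was lower in members than in low cells within each library, at 27.5 and 38.2 CPM against 41.8 and 71.1 CPM (-0.73 ± 0.12, adjusted p = 0.00417, edgeR). It was higher than in high cells, at 14.1 and 19.2 CPM (1.02 ± 0.14, adjusted p = 0.000453, edgeR). Of 20 basement membrane, matrix and adhesion genes on a list, 1 was higher than in low cells (Itga1) and 0 were lower, with a median of 0.00. Outside that list, Fbln1, the gene of fibulin, had 27.2 and 29.1 CPM in members against 44.6 and 67.5 CPM in low cells (-0.91 ± 0.15, adjusted p = 0.00417, edgeR). Col18a1, a basement-membrane collagen gene, had 34.1 and 39.1 CPM against 47.0 and 73.8 CPM, and Sulf1, which edits heparan sulfate, had 32.9 and 44.1 CPM against 42.9 and 81.2 CPM. Tmem158, Fabp5 and the sterol synthesis gene Msmo1 were lower as well, by log2 differences of -0.78, -0.81 and -0.35. Of these 7 genes, DESeq2 called Lmo2, Fbln1 and Col18a1. In thinned cells edgeR did not call Lmo2 (adjusted p = 0.105), Fbln1 (0.102) or Col18a1 (0.755). The same genes were not called with only members under 350 CPM of Cyp11b1 (adjusted p = 0.492, 0.178 and 0.0598, edgeR). Col18a1 was also lost with members of 250 to 450 CPM (0.0758) and with members from 350 CPM (0.055).

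Wnt4, at chr4:137277489-137299726, did not pass the test against low cells. It had 2082 and 2025 CPM in members, 2421 and 2197 CPM in low cells and 1718 and 1341 CPM in high cells. The members lay between the other groups in both libraries, with a difference of -0.20 ± 0.07 from low cells (adjusted p = 0.353, edgeR) and 0.44 ± 0.07 from high cells (adjusted p = 0.000661, edgeR). A fit of the members and low cells alone called the first difference (adjusted p = 0.00147). Almost every member held Wnt4: 98.4% in library 1 and all of library 2 after thinning (99.6% and 96.2% unthinned), with a median of 9 UMIs of 5000 per member and a range from the 10th to the 90th percentile of 3.1 to 17.9 and 4.0 to 18.6. Leukocytes held a Wnt4 UMI in 13.6% and 3.45% of cells.

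In edgeR's fit of the 8 sums and in DESeq2, the lists of zone markers held more calls against high than against low cells. Of 11 tested zG markers, 0 were higher and 1 lower (Vsnl1) than in low cells, with a median of -0.21, while 9 were higher and 0 lower than in high cells, with a median of 0.51. Of 8 zF markers, 0 were called against low cells in DESeq2 or in that edgeR fit, where 2 had an unadjusted p under 0.05. Against high cells 6 were lower (Hsd3b1, Abcb1b, Scarb1, Akr1b7, Mrap and Cyp21a1). The zF medians were 0.03 against low and -0.41 against high cells. Medians over all genes tested were -0.00 and 0.00. The fit of members and low cells alone called Wnt4, Dab2, Agtr1b, Hsd3b1 and Cyp21a1 (adjusted p = 0.00147, 0.000966, 0.00168, 2.01e-05 and 4.25e-05, edgeR). The fit of members and high cells alone did not call Axin2, Scarb1, Akr1b7 or Mrap (adjusted p = 0.0639, 0.0681, 0.115 and 0.075, edgeR). The contrast between the 2 comparisons thus depended on the fit. These lists were made with earlier results of these data known.

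**Figure D3:**
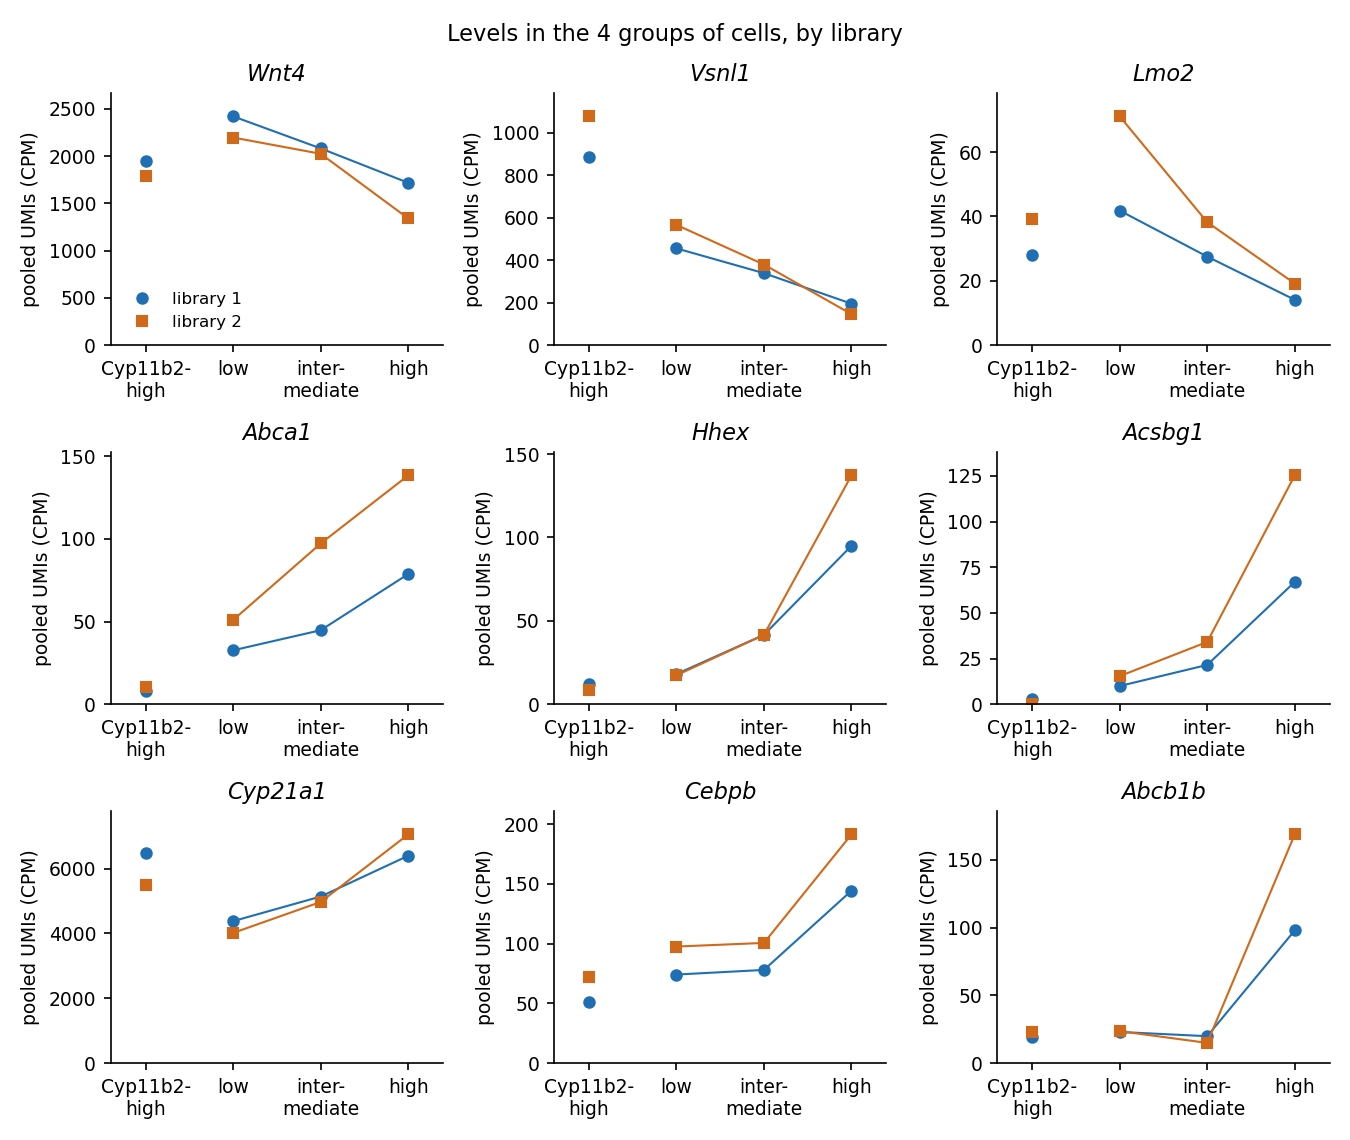
Pooled levels (CPM, y axes from 0) of 9 genes in Cyp11b2-high, low, intermediate and high Cyp11b1 cells (x axes), 1 point per library, with lines joining the 3 groups ordered by Cyp11b1. Wnt4, Vsnl1 and Lmo2 step down and Abca1, Hhex, Acsbg1 and Cyp21a1 step up through the intermediate group, whereas Cebpb and Abcb1b stay near their low-group level there.

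The second comparison asked how members differ from cells above the range. In edgeR, 260 genes were higher in members (2.23% of those tested) and 190 were lower (1.63%), of which 248 and 184 were called again without the 4 members over the leukocyte limit. Of the 260, 45 had over 25% of the members' UMIs in 1 cell. The higher genes included 16 of 20 G2 and M phase genes, 4 of 31 WNT pathway genes and the angiotensin receptor genes Agtr1a and Agtr1b. The lower ones included 4 of 12 steroid synthesis genes, 2 of 9 LXR and efflux genes and 1 of 13 cholesteryl ester genes. Of 25 sterol synthesis genes, 0 were called.

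Of 32 angiotensin, potassium and calcium signalling genes, 5 were higher in members than in high cells (Rgs4, Agtr1b, Agtr1a, Vsnl1 and Kcnk9) and 2 were lower (Rgs2 and Kcnk1), with a median of 0.08. Agtr1a had 466.2 and 418.2 CPM against 371.2 and 267.6 CPM (0.48 ± 0.08, adjusted p = 0.002, edgeR), and Agtr1b had 32.7 and 55.7 CPM against 22.1 and 20.5 CPM (0.89 ± 0.16, adjusted p = 0.00331, edgeR; 0.0635 with members under 350 CPM of Cyp11b1). The endocytic adaptor gene Dab2 had 1287 and 1864 CPM against 1005 and 1030 CPM (0.60 ± 0.09, adjusted p = 0.000944, edgeR). In each of the 3 genes every member value was above every high value.

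Of 31 WNT pathway genes, 4 were higher in members than in high cells (Lef1, Wnt4, Nkd1 and Axin2) and 0 lower, with a median of 0.09, and 0 were called against low cells in edgeR or DESeq2. In that comparison 5 of the 31 had an unadjusted p under 0.05 in edgeR. Lef1, a transcription factor of the pathway, had 71.1 and 114.7 CPM in members and 55.6 and 69.0 CPM in high cells (0.51 ± 0.10, adjusted p = 0.0036, edgeR). Nkd1, a target and inhibitor of the pathway, had 163.8 and 173.8 CPM against 117.5 and 84.3 CPM (0.71 ± 0.12, adjusted p = 0.00154, edgeR). Axin2, another target, differed by 0.32 ± 0.08 (adjusted p = 0.0301, edgeR) and was not called in DESeq2 (0.109) or in thinned cells (0.651).

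Further genes higher in members than in high cells were Gulo, the last enzyme of vitamin C synthesis, Eno3, a glycolytic enolase, and Scg5, a secretory granule protein. Eno3 had 120.5 and 79.8 CPM in members against 53.1 and 18.6 CPM in high cells (1.45 ± 0.23, adjusted p = 0.000966, edgeR; 0.115 in DESeq2). Scg5 had 30.03 and 24.1 CPM against 13.8 and 9.58 CPM (1.22 ± 0.16, adjusted p = 0.000168, edgeR). In both genes low cells had more than members, and Cyp11b2-high cells had the most.

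Steroid synthesis genes were lower in members than in high cells where called. Of 12 tested, 0 were called against low cells in edgeR or DESeq2, where 5 had an unadjusted p under 0.05, and 4 were lower in members than in high cells (Hsd3b1, Star, Cyp11a1 and Cyp21a1), with medians of -0.02 and -0.20. Star, of the protein that carries cholesterol into mitochondria, had 2352 and 2261 CPM in members, 2389 and 2316 CPM in low cells and 2727 and 3036 CPM in high cells. The members' difference from low cells was -0.05 ± 0.06 (adjusted p = 0.942, edgeR) and from high cells -0.30 ± 0.06 (adjusted p = 0.00761, edgeR).

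Cyp21a1, of the steroid hydroxylase that precedes the Cyp11b enzymes, had 5140 and 4973 CPM in members, between 4381 and 4018 CPM in low and 6398 and 7057 CPM in high cells. Its difference from high cells was -0.40 ± 0.07 (adjusted p = 0.00241, edgeR), and that from low cells was 0.24 ± 0.07, which did not pass (adjusted p = 0.23, edgeR). Hsd3b1, a steroid dehydrogenase gene, had 4865 and 4165 CPM in members, with differences of 0.27 ± 0.07 from low (adjusted p = 0.129) and -0.38 ± 0.07 from high cells (adjusted p = 0.00296, both edgeR). Both genes were called against low cells by the fit of those groups alone (adjusted p = 4.25e-05 and 2.01e-05, edgeR). The same held in cells of 10000 to 25000 UMIs (0.00793 and 0.00613) and with members from 350 CPM of Cyp11b1 (0.00913 and 0.0341). In thinned cells Cyp21a1 was called as well (0.0306, all edgeR).

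Of 24 ACTH, cAMP and PKA genes, 0 were called against low cells in edgeR or DESeq2, where 1 had an unadjusted p under 0.05, and 1 was higher and 3 lower than in high cells. DESeq2 called 1 higher and 0 lower there. Mrap, the accessory protein of the ACTH receptor, had 113.7 and 94.8 CPM in members against 138.3 and 148.1 CPM in high cells (-0.42 ± 0.11, adjusted p = 0.0312, edgeR; 0.16 in DESeq2). Scarb1, the lipoprotein receptor that takes up cholesteryl esters, had 179.4 and 195.4 CPM against 215.1 and 333.5 CPM (-0.46 ± 0.09, adjusted p = 0.00654, edgeR). The detoxifying reductase gene Akr1b7 had 972.9 and 627.7 CPM against 1102 and 1385 CPM (-0.61 ± 0.13, adjusted p = 0.0106, edgeR; 0.434 in DESeq2).

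Of 17 immediate early genes, 3 were lower in members than in high cells (Jun, Fosl2 and Junb) and 2 were higher (Nr4a3 and Klf2), with a median of -0.24. Jun had 219.2 and 364.1 CPM in members, 198.1 and 365.2 CPM in low cells and 333.5 and 581.8 CPM in high cells (-0.62 ± 0.07 from high, adjusted p = 1.42e-05, edgeR). Fosl2 differed from high cells by -1.06 ± 0.15 (adjusted p = 0.000418, edgeR). Cells with high Nr4a1 and Nr4a2, which belong to the same early response, had been left out of all groups.

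Genes with large differences from high cells included Mmd2, Cited1 and Srd5a2. Mmd2 had 11.4 and 9.98 CPM in members against 48.5 and 71.3 CPM in high cells (-2.28 ± 0.18, adjusted p = 7.5e-07, edgeR). Cited1, of a transcriptional coactivator, had 25.8 and 22.4 CPM against 62.4 and 68.6 CPM (-1.40 ± 0.16, adjusted p = 4.24e-05, edgeR). Srd5a2, of a steroid reductase, was read in 5 UMIs of 3 members, at 0.71 and 0.83 CPM against 13.3 and 22.4 CPM in high cells.

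**Figure D4:**
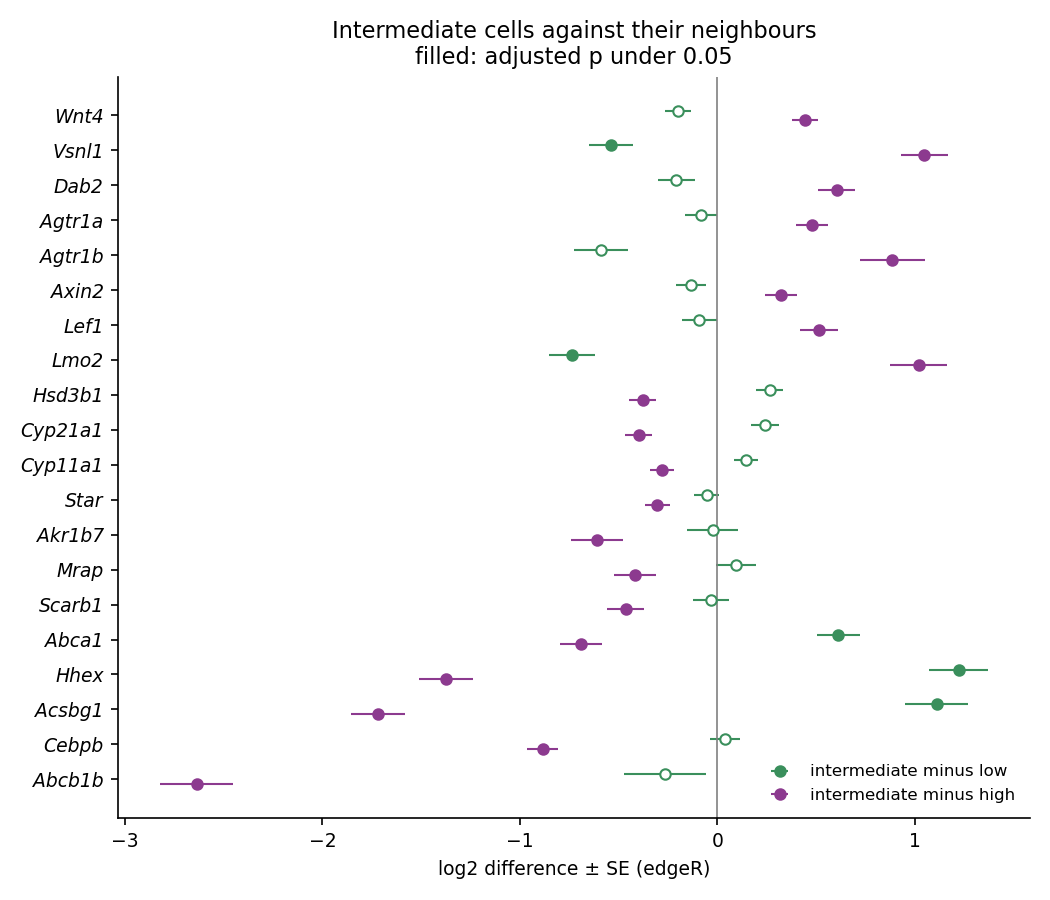
Log2 differences (x axis, bars ± SE, edgeR) of the intermediate cells from low (green) and from high Cyp11b1 cells (purple) for 20 genes (y axis), filled where the adjusted p was under 0.05. Vsnl1 and Lmo2 were called below low and above high cells, Abca1, Hhex and Acsbg1 above low and below high cells, and Abcb1b only against high cells at -2.64.

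A comparison added after the data were seen asked which genes stand off the midpoint, on the log2 scale, of low and high cells. In edgeR, 12 genes (0.103%) were above the midpoint of the groups and 2 (0.0172%) were below it. Of the 12, 11 had over 25% of the members' UMIs in 1 cell, 9 were lost without the 4 members over the leukocyte limit, and Cyp11b1 itself is 1 of them. Since members lay above the midpoint for Cyp11b1, a gene that changes in step with Cyp11b1 need not lie at the midpoint. The 2 below it were Abcb1b and Cebpb, named after their values were seen.

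Abcb1b, of a drug and steroid efflux pump, at chr5:8798147-8866315, had 19.9 CPM in members of library 1 and 15.0 CPM in library 2. Low cells had 23.0 and 23.6 CPM, Cyp11b2-high cells 19.6 and 23.2 CPM, and high cells 98.0 and 168.8 CPM. Both member values were under both low values and under both high values. The members lay below the midpoint by a log2 difference of -1.45 ± 0.19 (adjusted p = 0.000959, edgeR), below high cells by -2.64 ± 0.19 (adjusted p = 9.26e-08, edgeR) and differed from low cells by -0.27 ± 0.21 (adjusted p = 0.89, edgeR). In high cells 1 cell held 17.1% of the Abcb1b UMIs. After thinning, 7.94% of members in library 1 and 5.33% in library 2 held an Abcb1b UMI, against 16.7% and 20.7% of high cells, 10.9% and 9.67% of low cells and 13.6% and 10.3% of leukocytes. The member share was 31.0% and 17.5% unthinned, and by the thinned shares it was no higher than in leukocytes.

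Cebpb, a transcription factor gene of the bZIP family, had 78.0 and 100.6 CPM in members, 74.1 and 97.5 CPM in low cells and 144.3 and 191.4 CPM in high cells. The members were level with low cells within each library, at a difference of 0.04 ± 0.08 (adjusted p = 0.995, edgeR), and under high cells by -0.88 ± 0.08 (adjusted p = 1.53e-06, edgeR). They lay under the midpoint by -0.42 ± 0.07 (adjusted p = 0.0121, edgeR), a call that was lost with only members of at least 350 CPM of Cyp11b1 (0.255) and in thinned cells (1.0). For Hhex, Abca1, Vsnl1 and Wnt4 the differences from the midpoint were -0.08 ± 0.13, -0.04 ± 0.10, 0.26 ± 0.10 and 0.12 ± 0.06, none of which passed (adjusted p = 1.0 in edgeR).

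The third comparison set members against Cyp11b2-high cells, the aldosterone end of the cortex. In edgeR, 508 genes were higher in members (4.36%) and 708 were lower (6.08%), although the Cyp11b2-high sums held 49 and 46 cells. Those cells were deeper in the median, at 24540 and 19480 UMIs, but 15 of the 46 in library 2 were under 5000 UMIs.

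Of 12 steroid synthesis genes, 5 were lower in members than in Cyp11b2-high cells (Por, Star, Fdx1, Fdxr and Cyp21a1) and 2 were higher (Hsd3b1 and Cyb5b), with a median of 0.04. Fdx1, the electron donor of the mitochondrial steroid enzymes, had 2129 CPM in members of library 1 and 1344 CPM in library 2, against 8164 and 8279 CPM in Cyp11b2-high cells (-2.33 ± 0.11, adjusted p = 1.51e-10, edgeR). Star differed by -0.75 ± 0.06 (adjusted p = 1.84e-07) and Scarb1 by -1.57 ± 0.10 (adjusted p = 7.47e-09, both edgeR). Of 25 sterol synthesis genes, 19 were lower in members and 0 higher, with a median of -1.09 beside 0.02 over all genes. Cyp51, of a sterol demethylase, had 22.2 and 37.4 CPM in members against 96.3 and 147.7 CPM (-2.10 ± 0.15, adjusted p = 1.48e-08, edgeR). Against high Cyp11b1 cells 0 of these 25 genes were called in edgeR or DESeq2, and 4 had an unadjusted p under 0.05 in edgeR. Of 13 mitochondrially encoded genes, 12 were lower in members than in Cyp11b2-high cells and 0 higher, and the median mitochondrial share per cell was 5.50% and 4.89% in members against 7.14% and 6.94%.

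Of the zG markers, 6 of 11 were lower in members than in Cyp11b2-high cells and 1, the hedgehog ligand gene Shh, was higher. Agtr1b differed by -2.11 ± 0.17 (adjusted p = 5.35e-08), Vsnl1 by -1.51 ± 0.12 (adjusted p = 9.6e-08) and Dab2 by -0.79 ± 0.10 (adjusted p = 1.76e-05, all edgeR). Wnt4 did not pass, at 2082 and 2025 CPM in members and 1946 and 1786 CPM in Cyp11b2-high cells (0.08 ± 0.07, adjusted p = 0.566, edgeR). Shh had 275.6 and 333.4 CPM against 221.7 and 178.1 CPM (0.49 ± 0.12, adjusted p = 0.0141, edgeR; 0.407 in thinned cells).

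Calls among the zF markers went both ways. Of 8, 2 were higher in members than in Cyp11b2-high cells (Hsd3b1 and Mc2r, the ACTH receptor gene) and 5 were lower, among them Scarb1, Akr1b7, Mrap and Cyp21a1, with a median of -0.54. The Mc2r call was lost in DESeq2 (adjusted p = 0.0508) and thinned cells (0.624), and that of Hsd3b1 with members under 350 CPM of Cyp11b1 (0.051). Akr1b7 had 972.9 and 627.7 CPM in members against 2001 and 1805 CPM (-1.29 ± 0.14, adjusted p = 3.11e-06, edgeR). The reporter eGFP was lower in members too, at 2340 and 2341 CPM against 3361 and 4666 CPM (-0.82 ± 0.09, adjusted p = 3.11e-06, edgeR). After thinning, leukocytes held a mean of 12.7 and 16.8 eGFP UMIs, against 11.5 and 11.6 in members, so its level does not mark cortical cells here. No TdTomato UMI was read in any group compared.

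Abca1, Acan, Cited1 and Ighm were among the genes higher in members. Abca1 had 7.67 and 10.1 CPM there, so the members were higher by 2.78 ± 0.27 (adjusted p = 1.01e-06, edgeR). Acan differed by 3.59 ± 0.35 (adjusted p = 1.14e-06) and Cited1 by 3.14 ± 0.54 (adjusted p = 0.000605, both edgeR). Ighm, an immunoglobulin heavy chain gene, had 96.7 and 118.1 CPM in members against 5.97 and 8.69 CPM (3.82 ± 0.26, adjusted p = 1.08e-08, edgeR). Its 686 UMIs came from 200 members, with no more than 2.48% in 1 cell.

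Cell cycle genes separated members from high cells by way of a few cells. Of 20 genes of the G2 and M phases, 16 were higher in members than in high cells and 0 lower (median 2.31), and 1, Ccna2, was lower than in low cells (median -0.55). The Ccna2 call (-1.53 ± 0.33, adjusted p = 0.0493, edgeR) rested on 18 UMIs in 5 members and was lost in DESeq2 (0.717) and without the 4 members over the leukocyte limit (0.0551). Only 3 members of library 1 and 1 of library 2 had UMIs of at least 5 of the 20 genes, and these 4 cells held 87.7% and 85.3% of the members' UMIs of the list. In low cells, 53 and 29 cells (2.65% and 3.54%) met that count, and in high cells 3 and 3 (0.52% and 0.84%). Stmn1, a microtubule regulator of dividing cells, had 74.4 and 70.7 CPM in members, 140.5 and 157.8 CPM in low cells and 24.6 and 33.3 CPM in high cells, with 43.9% of the members' UMIs in 1 cell. A looser count after thinning took cells in which 3 or more cell cycle genes were read, which held for 19.8% of members in library 1 (15.1 to 25.3) and 21.3% in library 2 (12.7 to 32.3), against 19.8% and 26.7% of low and 15.6% and 19.7% of high cells. Unthinned, the member shares were 84.9% and 75.0%.

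Markers of other cell types moved with part of the calls. Summed leukocyte markers stood at 13.9 and 98.1 CPM in members against 2.78 and 1.71 CPM in low and 4.64 and 4.02 CPM in high cells, where the limit applied, and Ptprc and Cd79a were among those read in members. Of the 16 markers, 2 passed the low-count filter. The 4 members over the limit had 1518 to 15050 CPM of these markers and 1 to 5 Cyp11b1 UMIs each. Star was read in 3 of them, at 121.0 to 860.4 CPM. Igkc, an immunoglobulin gene, and Cd74 were called higher in members than in low cells (7.18 ± 0.35 and 4.04 ± 0.58, adjusted p = 3.11e-09 and 0.00164, edgeR). Without the 4 members, Cd74 was no longer called (0.58, adjusted p = 0.961) and Igkc was below the filter. The interferon-induced chemokine gene Cxcl10, also called (1.55 ± 0.17, adjusted p = 0.000138, edgeR), was read in 2 members, 1 of which held 87.3% of its UMIs, and Ifit1 had 78.4% in 1 cell.

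Of the other cell types, endothelial markers summed to 13.2 and 23.3 CPM in members, mostly Kdr, with Cdh5 and Tie1 at 0. Capsule and fibroblast markers summed to 27.7 and 16.6 CPM, nearly all Rspo3, with Lum, Col3a1, Pdgfra and Col1a2 at 0. Chromaffin markers summed to 2.13 and 0.83 CPM, with Th, Dbh and Pnmt at 0. Erythroid markers summed to 15.8 and 0.83 CPM in members but to 1028 CPM in high cells of library 1, where 4 of 4 tested haemoglobin genes were called lower in members, with 62.5% of the Hba-a2 UMIs of high cells in 1 cell. The part of these cells in the other calls was not tested, beyond the counts given without the 4 members. The highest doublet scores fell on 21 members of library 1 (8.14%, 5.11 to 12.2) and 4 of library 2 (5.00%, 1.38 to 12.3), against 4.70% and 1.71% of low and 5.74% and 2.51% of high cells.

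The label of a transitional state was set beside these values, which cannot check it. Cyp11b1 was used by the rule, and Wnt4 and Abca1 were named with earlier results of these data known. Pooled levels of Cyp11b1, Wnt4 and Abca1 lay between the low and high groups in both libraries, the first by the rule. Wnt4 and Abca1 were called against high cells in edgeR, while their calls against low cells depended on the setting, as given above. A group that mixes low and high cells would also have pooled levels between them, and this was not tested. No value here follows a cell over time, so the cells are called intermediate.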

How the data were processed

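The deposited values are raw UMI counts per gene and barcode, from the authors' run of Cell Ranger 3.1.0, per the file headers, on mm10, per the submitters' processing notes. The cell-calling settings are not given. The tables list 31057 features, of which 30934 matched GENCODE vM21. Levels are counts per 1000000 UMIs of a cell or of all cells of a group. Free RNA was not subtracted.

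The members, gene lists and tests were chosen with earlier results of these data known. UMIs were summed per group and library, and edgeR 4.0.16 (R 4.3.3, TMM, filterByExpr) fitted group and library to the 8 sums, with 3 residual and 15.1 prior degrees of freedom and a threshold of 0.05. Sums of the same library share its animals and handling, hence the library term. Levels rest on 5621303 and 1200270 UMIs of members in libraries 1 and 2.

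Named genes were the 10 with the largest differences per direction among those called with the same sign in both libraries and at least 20 CPM where higher, leaving out gene-model names and genes of the selection rule, up to 2 per list and direction, and fixed genes; Cebpb was added after its values were seen. Some genes the rule took are not reported here. Exact intervals are Clopper-Pearson at 95% and cover counting error only. Doublets were scored with scrublet (scanpy 1.11.5) and kept, except in 1 alternative that removed the highest scores. A share of cells was compared after thinning to 5000 UMIs. The fit was tested on simulated data. Alternatives covered RLE, DESeq2 1.42.0, filters, the library term, depth, the leukocyte limit and the limits of the range.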

Additional observations from a re-analysis of the deposited data

Results flagged for a closer look

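Of the 507 kept cells in the Cyp11b1 range, 93 had at least 100 CPM of Cyp11b2, 69 in library 1 and 24 in library 2, and so stood outside every group compared. They are noted because they hold UMIs of both paralogs and no comparison used them. Reads shared between Cyp11b1 and Cyp11b2 were not tested as their source.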

How the results depend on the processing

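Counts of genes higher and lower in members depended on the settings. Against low cells the 36 and 18 genes became 11 and 4 in DESeq2, 107 and 112 with no low-count filter, 1 and 0 with no library term, 82 and 104 with those 2 groups alone, 72 and 111 in cells of 10000 to 25000 UMIs, 23 and 5 with members of 250 to 450 CPM, and 20 and 4 with members under 350 CPM. The lower genes alone moved to 108 without the leukocyte limit, 32 with gaps around the range and 92 with members from 350 CPM, and the higher ones to 18 in thinned cells. Against high cells the 260 and 190 became 151 and 87 in DESeq2, 402 and 301 with no filter, 1 and 4 with no library term, 142 and 107 with 2 groups alone, 431 and 310 with gaps, 99 and 73 with members from 350 CPM, and 110 and 87 in thinned cells. Against Cyp11b2-high cells they became 22 and 46 with no library term and 147 and 215 in thinned cells, with 335 higher in DESeq2 and 308 at 10000 to 25000 UMIs.

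The midpoint counts of 12 and 2 became 77 and 17 with no filter, 0 and 0 with no library term, 19 and 4 with gaps, and 3 and 4 in thinned cells. Genes above it numbered 6 with at least 50 UMIs per library, 3 without the leukocyte limit or with it on members too, and 24 under 350 CPM, and genes below it 15 at 10000 to 25000 UMIs, 1 at 250 to 450 CPM and 5 from 350 CPM. With no library term, Cyp11b1 was the 1 gene higher than in low cells.

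The member share was 3.54% and 2.48% at 250 to 450 CPM and 8.601% and 8.792% when the rule was read after thinning. Held-out Cyp11b1 was 374.7 and 328.2 CPM. Directions turned for Itga1 (-0.0306, thinned), Cxcl10 (-9.39, under 350 CPM), Igkc (-0.11) and Cd74 (-2.63) without the leukocyte limit, Cebpb (-0.0222 there and -0.0206 under 350 CPM) and Star (0.0357, from 350 CPM) against low cells. Against high cells they turned for Stmn1 (-0.65 at 10000 to 25000 UMIs and -1.92 from 350 CPM) and Ube2c (-0.90 and -0.46), and against the midpoint for Hhex (0.00934 at 250 to 450 CPM, 0.11 from 350 CPM) and Abca1 (0.00422 with no library term, 0.0557 and 0.0566). The causes were not tested. Over the settings with a test, 1339 of 1548 named-gene values kept direction and call, a count that includes uncalled genes that stayed uncalled. With no library term, 29 of 98 did. Each library alone gave differences of the same sign for the genes of the text, with no test. For genes named by their calls that sign was a condition of naming, so it adds no support. No paired analysis was possible because the study has 1 group, though the library term pairs groups of cells within a library.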
